A study of Mus musculus with 2 samples.

Results

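The *Hox* genes were examined across the cell types of the fetal mouse testis. Their rows were taken by name, as every gene symbol made of Hox, a letter from a to d and a number, which gave 39 of the 32285 genes measured. The 39 lie in 4 clusters of the genome, with 11 in HoxA on chromosome 6, 10 in HoxB on chromosome 11, 9 in HoxC on chromosome 15 and 9 in HoxD on chromosome 2 (mm10, the same build as GRCm38). The measured material was whole testes of E14.5 embryos, frozen and then profiled by 10x multiome, which reads RNA and open chromatin (ATAC) from the same nucleus. All embryos carried *Nr5a1-cre*, a Cre recombinase made under the control of a gene of gonadal and adrenal cells, and the Cre reporter *Rosa-tdTomato*, from *Nr5a1-cre* parents and *Rosa-tdTomato* mothers that were each homozygous, so no genotype was compared. A single RNA library came with its ATAC library, and the sources used here do not say how many embryos were pooled. No replicate therefore stands behind any value, no test between animals was possible, and the intervals below are exact 95% intervals that cover counting error only.

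*Hox* genes encode homeodomain transcription factors that give cells along the head-to-tail axis their position. Within a cluster the genes stand in the order of their paralogue numbers, and genes with low numbers are in general switched on earlier and farther forward than genes with high numbers. Once set in the embryo, the pattern is kept by Polycomb repressors and trithorax-type activators, and the proteins bind DNA, often at a TAAT core, together with TALE cofactors of the Meis, Pbx and Pknox families. In the urogenital tract the high-numbered genes pattern the reproductive ducts and the external genitalia, and *Hoxa10* is needed for descent of the testis.

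After filters, 7197 nuclei remained and fell into 12 clusters, which were made without the *Hox* genes, any gene of the *Hox* loci or any peak within 100 kb of a *Hox* cluster. Markers named 11 of the clusters and left 1 without a name, which gave 11 classes with median depths of 5676 to 15461.5 RNA molecules (UMIs) per nucleus. Progenitor-like nuclei, the interstitial mesenchyme, were the largest class with 3261 nuclei. They detected all 6 of their markers but none of these was among the 10 leading genes of either of their clusters, and at a finer clustering 1088 of them moved to a contractile-like cluster. The other classes were 964 germ-like, 846 Sertoli-like, 801 Leydig-like, 562 surface epithelium-like, 395 mesonephric mesenchyme-like, 103 endothelial-like, 70 pericyte-like, 68 immune-like and 45 erythroid-like nuclei. A further cluster of 82 nuclei, led by *Rmst*, *Kcnh7* and *Pax8*, detected only 2 of the markers of its closest class and was left unnamed.

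The 250 bases before the start of 5 *Hox* genes are shown because their chromatin or their RNA differed between classes in the results below. They were read from RefSeq promoters on build GRCm38.p6 and are written 5′ to 3′ on the strand of the gene. Capitals mark TAAT, the core bound by homeodomain proteins, read on both strands, and overlapping matches are joined. *Hoxa3* RNA was higher in mesonephric mesenchyme and surface epithelium than in progenitors, *Hoxd3* RNA was lower in mesonephric mesenchyme, *Hoxd11* stands out in the surface epithelium, and the promoters of *Hoxd1* and *Hoxd10* gave the lowest and the highest ratio between progenitor and germ nuclei. For *Hoxd11* the second of 2 annotated starts is shown, since more fragments fell there than at the first.
*Hoxa3*, chr6:52213068-52213317, minus strand: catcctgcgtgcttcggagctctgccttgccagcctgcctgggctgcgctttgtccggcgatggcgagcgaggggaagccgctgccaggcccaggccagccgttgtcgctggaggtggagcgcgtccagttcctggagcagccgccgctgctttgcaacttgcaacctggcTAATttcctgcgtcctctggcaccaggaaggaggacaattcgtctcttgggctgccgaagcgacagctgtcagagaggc
*Hoxd3*, chr2:74711743-74711992, plus strand: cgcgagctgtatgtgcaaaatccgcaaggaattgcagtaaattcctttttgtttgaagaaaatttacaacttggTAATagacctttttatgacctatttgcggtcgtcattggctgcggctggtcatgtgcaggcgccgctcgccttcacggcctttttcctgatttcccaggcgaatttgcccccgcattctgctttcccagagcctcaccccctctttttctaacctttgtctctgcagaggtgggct
*Hoxd11*, chr2:74682073-74682322, plus strand: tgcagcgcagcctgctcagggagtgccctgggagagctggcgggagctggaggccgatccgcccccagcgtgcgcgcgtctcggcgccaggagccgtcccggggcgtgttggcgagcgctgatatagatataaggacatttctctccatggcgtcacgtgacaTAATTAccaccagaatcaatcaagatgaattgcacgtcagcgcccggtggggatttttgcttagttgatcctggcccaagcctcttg
*Hoxd10*, chr2:74691641-74691890, plus strand: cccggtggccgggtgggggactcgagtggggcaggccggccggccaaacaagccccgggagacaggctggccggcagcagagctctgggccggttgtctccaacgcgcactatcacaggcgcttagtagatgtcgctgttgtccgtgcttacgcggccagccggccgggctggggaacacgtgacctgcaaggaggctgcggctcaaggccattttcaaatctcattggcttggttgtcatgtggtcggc
*Hoxd1*, chr2:74762730-74762979, plus strand: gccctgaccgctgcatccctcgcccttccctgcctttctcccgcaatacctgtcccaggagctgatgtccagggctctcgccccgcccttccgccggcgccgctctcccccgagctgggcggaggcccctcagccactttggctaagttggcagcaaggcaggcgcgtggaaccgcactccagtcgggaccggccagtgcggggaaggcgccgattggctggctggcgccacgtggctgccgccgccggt

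Of 32851 RefSeq promoters of this length, 54.9% held TAAT on either strand. Among the *Hox* genes 22 had an entry, with 24 starts in all, and 18 of the 24 (75%) held it. TGATTNAT, a longer site joined by Hox and TALE proteins, was in 2 of 24 *Hox* starts and in 2.82% of all promoters. AAGGTCA, a nuclear receptor half-site, was in 1 of 24 and in 4.08%. These are matches of letters, and no binding was measured.

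Across all kept nuclei 21 of the 39 *Hox* genes had at least 100 UMIs, 4 in HoxA, 5 in HoxB, 6 in HoxC and 6 in HoxD. By UMI total they were led by *Hoxd3* with 6061, *Hoxd4* with 4272, *Hoxc4* with 3422, *Hoxc6* with 2995, *Hoxd9* with 1646, *Hoxc5* with 1369 and *Hoxd8* with 1235. Introns were counted, so a long gene collects more UMIs. Per kilobase of gene in progenitor-like nuclei, *Hoxd9* was the highest at 15.4 UMIs per 1000000 (CPM) per kb, followed by *Hoxd8* at 8.22, *Hoxd4* at 6.10, *Hoxc6* at 4.94, *Hoxc4* at 4.40, *Hoxd10* at 4.33 and *Hoxd3* at 4.15. The RNA was thus mostly from paralogues 3 to 10 of HoxC and HoxD.

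Other genes had little or no RNA. *Hoxb13*, *Hoxc12* and *Hoxd13* had 0 UMIs, below the level of 0.0391 CPM that 3 UMIs give over all kept nuclei. Those with under 100 UMIs included *Hoxa7* with 96, *Hoxa6* with 37, *Hoxb2* with 25, *Hoxa2* with 24, *Hoxa4* with 21, *Hoxb7* with 19, *Hoxc13* with 10, *Hoxb8* with 8 and *Hoxd1* with 5. *Hoxa13* and *Hoxc11* had 3 each, *Hoxa11* had 2, and *Hoxb1* and *Hoxd12* had 1 each. The genes with numbers 12 and 13 thus stood near 0, and so did *Hoxa11*, a gene of the reproductive ducts and kidney. The 10 UMIs of *Hoxc13* and the 3 of *Hoxa13* were all in germ-like nuclei.

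Gene models overlap within the clusters. *Hoxa3* spans *Hoxa4*, *Hoxa5* and *Hoxa6* on the same strand, *Hoxc5* overlaps *Hoxc6*, *Hoxc8*, *Hoxc9* and *Hoxc10*, and *Hoxd3* and *Hoxd4* are annotated from nearly the same start, at positions 74711927 and 74711929 of chromosome 2. In all, 11 members overlap another on the same strand and 14 overlap a gene on the opposite strand. How the authors' counting split reads in these stretches was not tested, so values of neighbours in such a pair are uncertain.

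**Figure D1:**
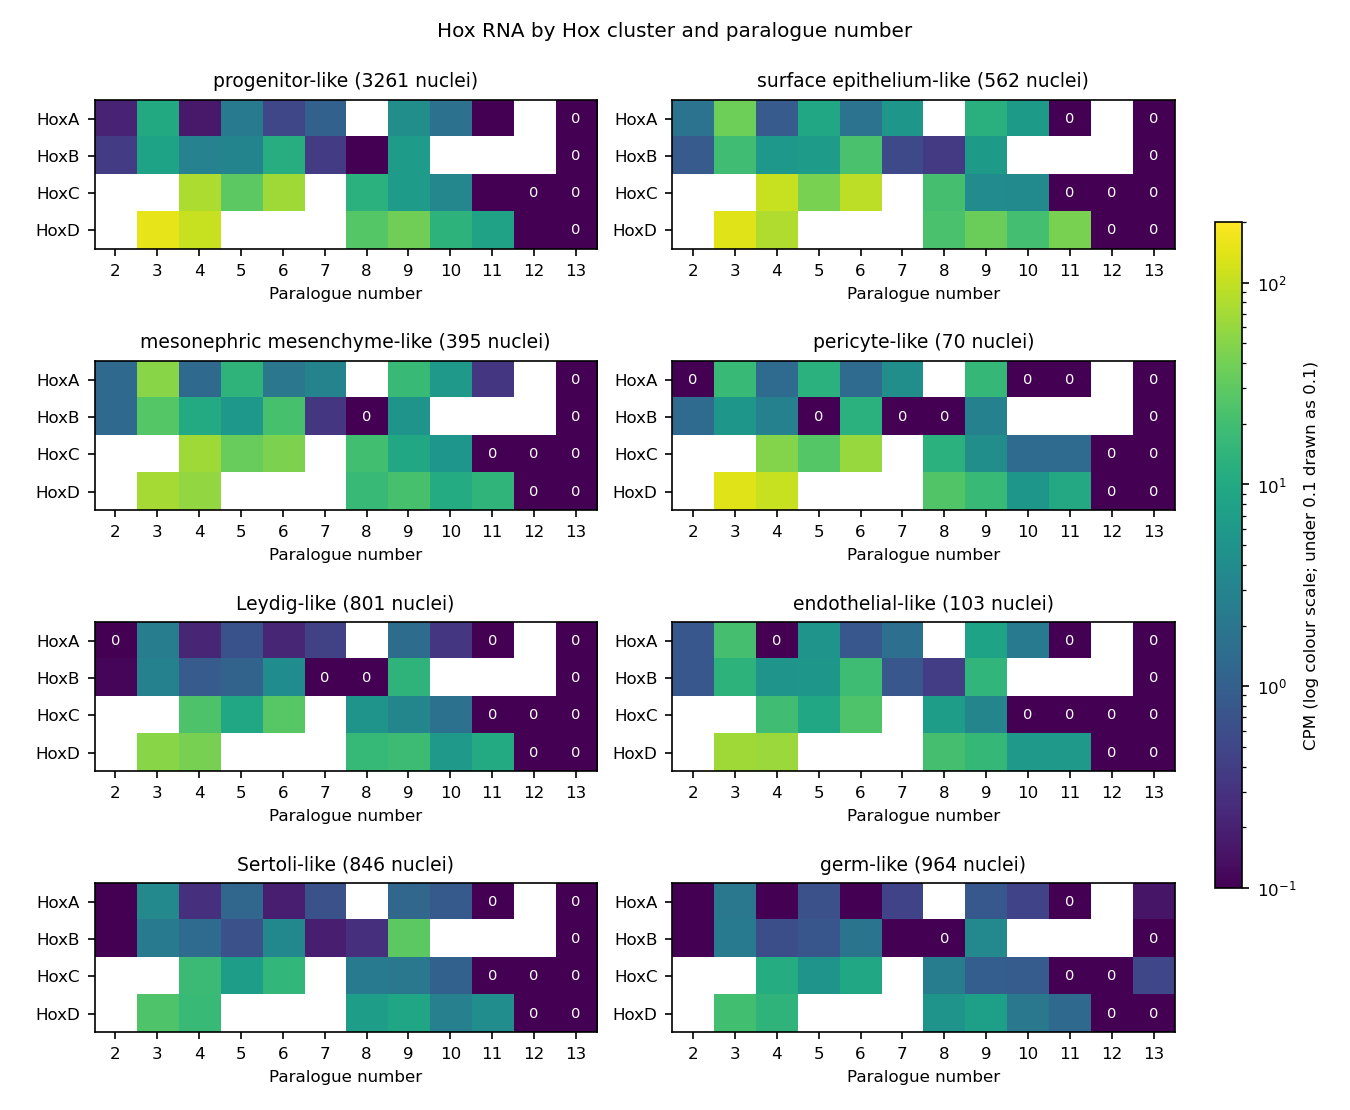
RNA level of the *Hox* genes with paralogue numbers 2 to 13, in UMIs per 1000000 (CPM, log colour scale), by cluster (rows) and paralogue number (columns) in 8 classes of nuclei. White squares are genes that the mouse lacks and a printed 0 is no UMI. Levels under 0.1 CPM are drawn as 0.1. *Hoxd3* has the highest level in progenitor-like and in surface epithelium-like nuclei, at 152 and 136 CPM, while in Sertoli-like nuclei *Hoxb9* does, at 29.7 CPM.

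Summed over the 39 genes, *Hox* RNA was highest in surface epithelium-like nuclei at 753 CPM (730 to 776) and in progenitor-like nuclei at 596 CPM (586 to 606). Mesonephric mesenchyme-like nuclei at 545 CPM (519 to 573) and pericyte-like nuclei at 537 CPM (484 to 594) came next, and their intervals overlap, as does that of the pericytes with that of the progenitors. Endothelial-like nuclei stood at 346 CPM, and the unnamed cluster at 269, immune-like at 254 and Leydig-like nuclei at 245 CPM had overlapping intervals. The lowest were Sertoli-like nuclei at 156, germ-like nuclei at 94.4 and erythroid-like nuclei at 75.3 CPM. These levels include nuclei whose doublet score was high, described next, and the lower part of the order changes without them.

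The share of nuclei with a *Hox* UMI followed the same order in the large classes, all kept nuclei included. It was 95.7% of surface epithelium-like, 94.1% of progenitor-like, 89.9% of mesonephric mesenchyme-like, 80.025% of Leydig-like, 50.4% of Sertoli-like and 33.8% of germ-like nuclei. Depth differs between these classes, from a median of 6359 UMIs in progenitor-like to 15461.5 in germ-like nuclei, so each nucleus was also thinned to 2000 UMIs. The shares were then 73.6%, 67.9%, 60.2%, 36.1%, 17.2% and 8.32%. A thinned surface epithelium-like nucleus showed 1.42 different *Hox* genes on average and a thinned progenitor-like nucleus 1.10, against 0.206 and 0.0967 in Sertoli-like and germ-like nuclei. Between 1 and 54 nuclei of each of these classes were shallower than 2000 UMIs and were left out. The unthinned shares were 75.04% in Leydig-like, 41.8% in Sertoli-like and 17.4% in germ-like nuclei without the high-score nuclei described next.

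Germ-like nuclei were taken as the background class, in which RNA from other cells would be read. For the 21 genes with at least 100 UMIs, the germ-like level was between 11.9% (*Hoxd11*) and 36.0% (*Hoxc10*) of that in all other kept nuclei, with a median of 20.5%. Scrublet gives each nucleus a doublet score, which rates how far its RNA looks like a mix of 2 nuclei, and 470 of 7667 nuclei had been removed by rank on it. Its automatic threshold would have removed 1519, and the kept nuclei over that threshold, called high-score nuclei below, were then examined apart. The score was computed on all genes, *Hox* genes included.

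High-score nuclei held much of the *Hox* RNA of the classes with little of it. They were 22.9% of germ-like nuclei and held 91.9% of their *Hox* UMIs, and they were 16.9% of Sertoli-like nuclei and held 73.0% of theirs. The shares were 20.5% and 49.1% in the Leydig-like class, 19.0% and 31.2% in the mesonephric mesenchyme-like class, 11.9% and 20.4% in the surface epithelium-like class and 8.19% and 14.6% in the progenitor-like class. Without them *Hox* RNA was at 13.6 CPM (11.5 to 16.0) in germ-like, 63.2 CPM (57.5 to 69.4) in Sertoli-like, 193 CPM (182 to 204) in Leydig-like, 515 CPM (485 to 546) in mesonephric mesenchyme-like, 598 CPM (587 to 608) in progenitor-like and 784 CPM (757 to 811) in surface epithelium-like nuclei. In the small classes it was at 589 CPM (522 to 662) in pericyte-like, 326 CPM (277 to 380) in endothelial-like, 207 CPM (171 to 248) in the unnamed cluster, 61.3 CPM (33.5 to 103) in immune-like and 36.1 CPM (15.6 to 71.04) in erythroid-like nuclei. The immune-like interval thus no longer overlapped those of the Leydig-like nuclei and the unnamed cluster, and the germ-like and erythroid-like intervals overlapped with or without these nuclei. The 6 progenitor markers moved with the score. All 6 were detected on both sides of the threshold in these classes, and their summed level was 621 CPM in high-score and 119 CPM in other germ-like nuclei, 866 and 88.1 CPM in Sertoli-like nuclei and 1077 and 395 CPM in Leydig-like nuclei. Median depth moved too, with 25336 against 14058 UMIs, 17778 against 9249 and 16852 against 8814 in the same classes. The part of these nuclei in each result was not tested, and leaving them out was chosen after seeing the data. With stricter minimums on nuclei the automatic threshold marked 0 of 5610 nuclei, so the threshold itself depended on the filter.

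**Figure D2:**
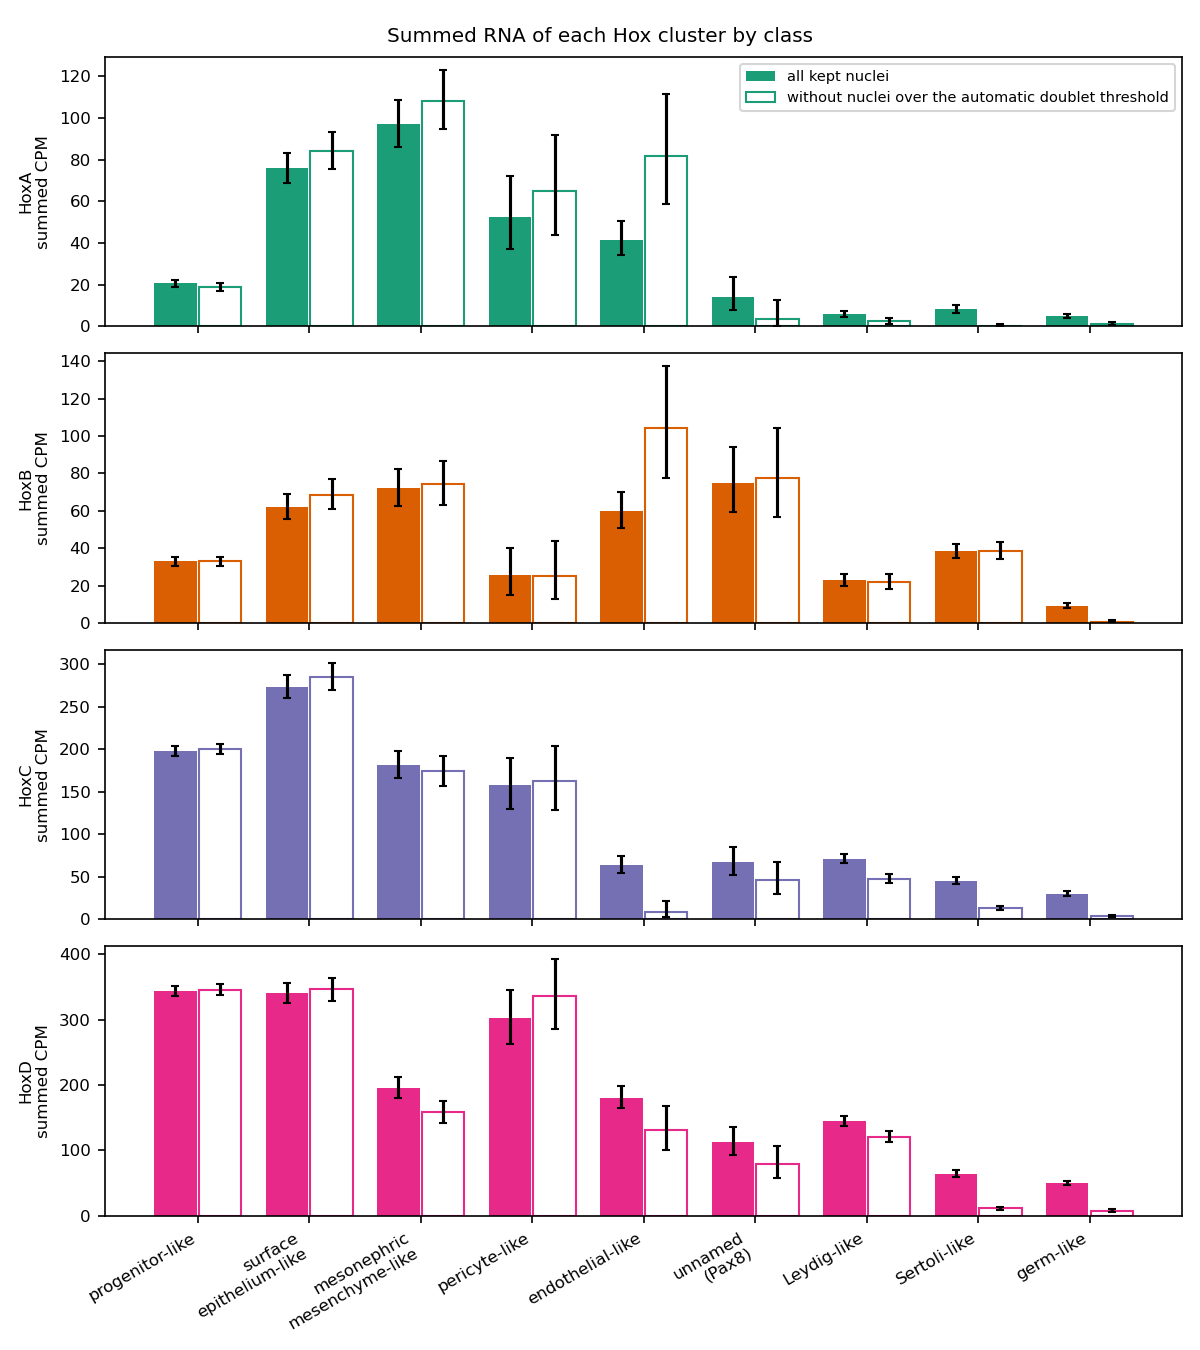
Summed RNA of each *Hox* cluster in CPM, in 9 classes of nuclei, with all kept nuclei (filled bars) and without the high-score nuclei (open bars). Error lines are exact 95% Poisson intervals for counting error only. HoxA is low in progenitor-like nuclei (20.6 CPM) and high in mesonephric mesenchyme-like and surface epithelium-like nuclei (96.9 and 75.8 CPM), and in Sertoli-like nuclei without the high-score nuclei HoxC and HoxD are at 13.1 and 11.1 CPM beside HoxB at 38.5 CPM.

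The 4 clusters contributed unequally, and differently by class. In progenitor-like nuclei 57.8% of *Hox* UMIs came from HoxD, 33.3% from HoxC, 5.52% from HoxB and 3.46% from HoxA. Leydig-like nuclei had a similar split, with 59.2% from HoxD, 29.0% from HoxC, 9.37% from HoxB and 2.38% from HoxA. Mesonephric mesenchyme-like nuclei were the most even, with 35.8% from HoxD, 33.3% from HoxC, 13.2% from HoxB and 17.8% from HoxA. In surface epithelium-like nuclei HoxA held 10.1% and HoxB 8.24%. Sertoli-like nuclei had the largest HoxB share of the large classes at 24.5%, and 60.9% without the high-score nuclei.

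By position along the clusters, with all kept nuclei, paralogues 4 to 8 held the most UMIs in each of the 11 classes, between 47.7% of *Hox* UMIs in Sertoli-like and 73.3% in erythroid-like nuclei, the latter from 30 UMIs. Introns were counted, so long genes such as *Hoxd3* (36.5 kb), *Hoxc4* (17.9 kb) and *Hoxd4* (17.2 kb) weigh more in these shares. Per kilobase *Hoxd9* was the highest in progenitor-like nuclei. *Hoxd3* and *Hoxd4*, whose reads may be split wrongly, fall into different blocks. Paralogues 9 to 13 held 13.9% (13.3% to 14.4%) in progenitor-like, 16.7% (14.9% to 18.6%) in mesonephric mesenchyme-like, 17.8% (16.7% to 19.0%) in surface epithelium-like, 22.8% (21.0% to 24.6%) in Leydig-like and 32.4% (30.2% to 34.7%) in Sertoli-like nuclei. With the high-score nuclei left out the order turned in Sertoli-like nuclei, where paralogues 9 to 13 held 63.2% (280 of 443 UMIs) and paralogues 4 to 8 held 30.2%, and the share of paralogues 9 to 13 was 27.2% in Leydig-like nuclei. In the other 10 classes paralogues 4 to 8 still held the most. The Sertoli-like share came mostly from 1 gene, *Hoxb9*, with 312 of 531 UMIs over all kept nuclei, and the surface epithelium-like share from *Hoxd11*, *Hoxd9* and *Hoxd10*, with 244, 204 and 115 of 745.

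The main comparison of the study sets the interstitial progenitors against the fetal Leydig cells, the androgen-making cells of the same compartment. The progenitor-like class used here also holds contractile-like nuclei, a cell type that the study kept apart from its progenitors. *Hox* RNA was higher in progenitor-like nuclei, at 596 against 245 CPM, a ratio of 2.43 (2.32 to 2.54), and 3.10 (2.91 to 3.30) without the high-score nuclei. Of the 22 *Hox* genes with at least 20 UMIs over both classes, 17 were at least 2-fold higher in progenitor-like nuclei, where 16.3% of all 15856 genes with as many UMIs were, and 1 was at least 2-fold lower, where 12.9% of all genes were. Without the high-score nuclei 18 of 22 were higher and 1 lower, against 19.7% and 14% of all genes. The median log2 ratio was 1.41 over the 22 genes and -0.01 over all genes.

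All 4 clusters took part. HoxA RNA of 20.6 CPM in progenitors against 5.83 CPM gave 3.54 (2.65 to 4.80), HoxC gave 2.78 (2.56 to 3.03), HoxD 2.37 (2.24 to 2.52) and HoxB 1.43 (1.23 to 1.68). Once the high-score nuclei were left out HoxA gave 7.81 (4.60 to 14.4) on 14 Leydig-like UMIs, HoxC 4.20 (3.72 to 4.76), HoxD 2.86 (2.65 to 3.09) and HoxB 1.51 (1.24 to 1.84). Among anterior genes *Hoxd3*, which patterns the neck vertebrae, stood at 152 against 51.3 CPM and *Hoxa3*, needed for the thymus and parathyroid, at 10.2 against 2.47 CPM. The *Hoxa3* ratio of 4.15 rested on 22 Leydig-like UMIs and was 13.3 (5.11 to 49.4) on 4 UMIs without the high-score nuclei. At the finer clustering the progenitor-like cluster of 1422 nuclei had HoxA at 10.5 CPM (8.52 to 12.8) and *Hoxa3* at 4.01 CPM (2.82 to 5.52). The contractile-like cluster had 27.6 and 14.8 CPM, and the cluster of 755 nuclei led by cell cycle genes had 26.5 and 13.5 CPM. Both contrasts with Leydig-like nuclei were thus smaller for the cluster of 1422 nuclei alone. *Hoxc4* gave 3.27 and *Hoxc6* 2.44, from 78.8 against 24.1 and 67.3 against 27.6 CPM, and 5.51 (4.41 to 6.95) and 3.23 (2.68 to 3.92) without those nuclei. Each of these 4 genes was at least 2-fold lower in Leydig-like nuclei.

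Summed over the posterior genes the contrast was smaller. Paralogues 1 to 3 together had a ratio of 3.01 (2.75 to 3.31), paralogues 4 to 8 of 2.58 (2.43 to 2.75) and paralogues 9 to 13 of 1.48 (1.34 to 1.64), and the last interval overlaps neither of the others. These 3 ratios were 4.01 (3.53 to 4.58), 3.53 (3.24 to 3.85) and 1.56 (1.38 to 1.77) without the high-score nuclei. The genes with numbers 9 to 13 did not move alike. *Hoxa10* gave 5.24 (1.68 to 26.4) on 3 Leydig-like UMIs, *Hoxa9* 2.97 (1.66 to 5.76), *Hoxd10* 2.23, *Hoxd9* 2.07, *Hoxc10* 1.997 and *Hoxc9* 1.99, and the last 4 gave 1.94, 2.85, 2.35 and 2.52 without the high-score nuclei, where *Hoxd10* was no longer past 2-fold. *Hoxd11*, which patterns the forelimb and, with *Hoxa11*, the kidney, had 8.06 CPM in progenitors against 10.4 CPM in Leydig-like nuclei, which gave 0.773 (0.601 to 1.001), and 0.622 (0.461 to 0.848) without the high-score nuclei. *Hoxb9*, known from the thoracic skeleton and the mammary gland, went the other way at 6.42 against 14.01 CPM, a ratio of 0.458. It was the only *Hox* gene with 20 UMIs that was 2-fold higher in Leydig-like nuclei, and stood at 0.439 (0.332 to 0.581) without the high-score nuclei.

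Mesonephric mesenchyme-like nuclei, from the tissue that borders the gonad, had nearly as much *Hox* RNA as progenitor-like nuclei, with HoxD and HoxC again the largest parts but more from HoxA and HoxB. The sum was 545 against 596 CPM, a ratio of 0.916 (0.869 to 0.964), with HoxA at 4.70 (4.05 to 5.45), HoxB at 2.19 (1.87 to 2.55), HoxC at 0.916 (0.836 to 1.001) and HoxD at 0.567 (0.520 to 0.617). Of 22 genes with at least 20 UMIs, 7 were at least 2-fold higher (*Hoxa3*, *Hoxa5*, *Hoxa7*, *Hoxa9*, *Hoxa10*, *Hoxb3* and *Hoxb4*), where 5.55% of all genes were, and 1 was at least 2-fold lower (*Hoxd3*), where 8.36% of all genes were. All 5 HoxA genes with enough UMIs were thus among the higher ones.

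*Hoxa3* was at 51.5 CPM in mesonephric mesenchyme-like and 10.2 CPM in progenitor-like nuclei, a ratio of 5.03 (4.08 to 6.18). *Hoxa5*, needed in the lung and trachea, gave 6.12 (3.997 to 9.32) and *Hoxa9* 3.97 (2.78 to 5.61). *Hoxa10* stood at 6.06 against 1.76 CPM. *Hoxb3* and *Hoxb4* gave 3.24 and 3.602. In HoxD most genes were lower, with *Hoxd3* at 72.0 against 152 CPM, a ratio of 0.475 (0.412 to 0.545), *Hoxd4* at 0.557, *Hoxd9* at 0.580 and *Hoxd8* at 0.617, except for *Hoxd11* at 1.80 (1.26 to 2.51). Without the high-score nuclei the HoxA ratio was 5.73 and the HoxD ratio 0.457, 10 genes were 2-fold higher and 4 lower (*Hoxb9*, *Hoxd3*, *Hoxd4* and *Hoxd9*), against 6.08% and 10.9% of all genes.

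Surface epithelium-like nuclei, the covering layer of the testis, had the highest *Hox* RNA, with a ratio to progenitor-like nuclei of 1.26 (1.22 to 1.31). HoxA and HoxB were at 3.68 (3.22 to 4.20) and 1.89 (1.66 to 2.14), with HoxC at 1.38 (1.30 to 1.46) and HoxD at 0.991 (0.942 to 1.04). Of 23 genes with at least 20 UMIs, 9 were at least 2-fold higher (*Hoxa3*, *Hoxa5*, *Hoxa6*, *Hoxa7*, *Hoxa9*, *Hoxa10*, *Hoxb3*, *Hoxb5* and *Hoxd11*), where 9.22% of all genes were, and 0 were 2-fold lower, where 8.91% were. Leaving out the high-score nuclei gave 10 of 22 higher, against 9.69% of all genes, and 0 lower, against 10.5%, with HoxD at 1.001 (0.946 to 1.06). Both comparisons share the progenitor-like nuclei, so their likeness is not independent. The finer clustering gave surface epithelium-like clusters of 474 and 88 nuclei. Both detected all 6 markers of the class, but none of these was among the 10 leading genes of the first cluster, and 1 was in the second. *Hox* RNA was not read apart in these clusters.

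*Hoxd11* was the gene that stood apart in this class. It was at 43.9 CPM (38.5 to 49.7) in surface epithelium-like nuclei, at 14.47 in mesonephric mesenchyme-like, 10.4 in Leydig-like, 9.92 in pericyte-like, 8.06 in progenitor-like, 5.95 in endothelial-like, 4.19 in Sertoli-like and 1.33 CPM in germ-like nuclei. The unnamed cluster and the immune-like class had 1 UMI each and the erythroid-like class 0. The interval of the surface epithelium overlaps no other, and the ratio to progenitor-like nuclei was 5.44 (4.49 to 6.61), or 6.83 (5.48 to 8.52) without the high-score nuclei. It was carried by 17.1% of surface epithelium-like nuclei against 3.80% of progenitor-like nuclei. Its neighbour *Hoxd10* gave 1.502 (1.20 to 1.86) and *Hoxd9* 0.958 (0.819 to 1.12), so the difference did not extend evenly along HoxD.

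**Figure D3:**
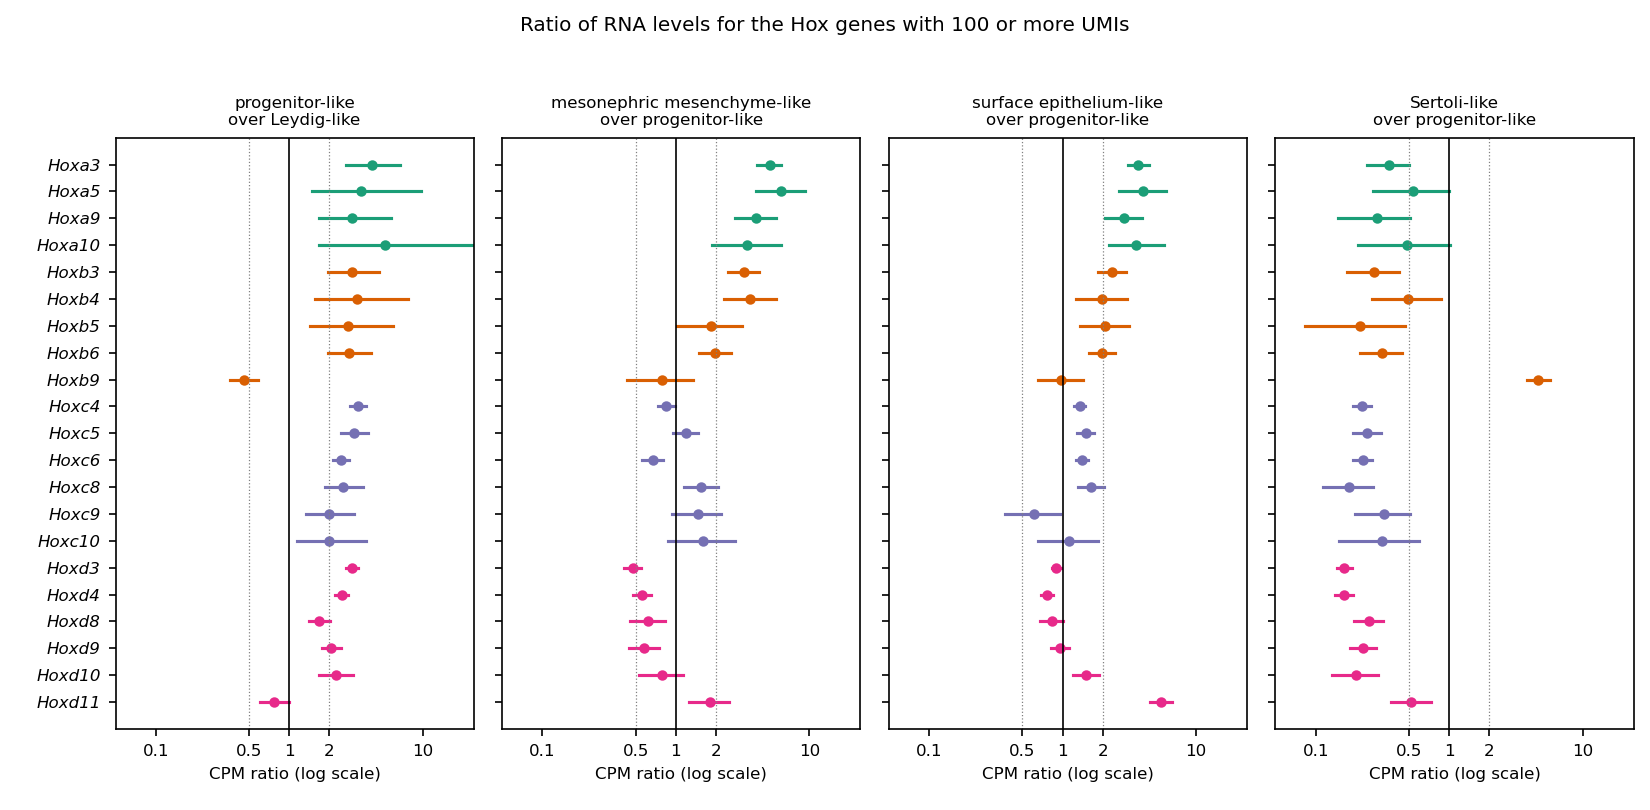
Ratio of RNA levels (CPM, log scale) for the 21 *Hox* genes with at least 100 UMIs in 4 comparisons of classes, coloured by *Hox* cluster, with exact 95% intervals for counting error only and dotted lines at 2-fold. *Hoxb9* lies on the other side of 1 from its neighbours in the comparisons with Leydig-like (0.458) and Sertoli-like nuclei (4.63), and the HoxA genes lie above 1 in mesonephric mesenchyme-like and surface epithelium-like nuclei.

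Sertoli-like nuclei, the supporting cells of the testis cords, had little *Hox* RNA other than *Hoxb9*. Against progenitor-like nuclei the sum gave 0.262 (0.249 to 0.276), and 0.106 (0.0960 to 0.116) without the high-score nuclei. Of 22 genes, 18 were at least 2-fold lower, where 14.2% of all genes were, and *Hoxb9* was at least 2-fold higher, where 15.4% of all genes were. When the high-score nuclei were left out 21 of 22 were lower, against 17.8%, and *Hoxb9* was again the 1 higher, against 16.7%. There *Hoxd3* gave 0.0214 (0.0135 to 0.0322), and *Hoxa3* and *Hoxd11* had 0 UMIs in 703 Sertoli-like nuclei, which allows up to 0.527 CPM, against 187 and 142 UMIs in progenitor-like nuclei.

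*Hoxb9* was at 34.0 CPM (23.6 to 47.6) in the unnamed cluster and at 29.7 (26.5 to 33.2) in Sertoli-like nuclei, whose intervals overlap, then at 14.7 in endothelial-like and 14.01 in Leydig-like nuclei. It was at 8.71 in immune-like, 6.42 in progenitor-like, 6.29 in surface epithelium-like, 5.05 in mesonephric mesenchyme-like, 3.58 in germ-like and 2.83 CPM in pericyte-like nuclei, and at 0 in erythroid-like nuclei. Without the high-score nuclei the first 4 were again these, with 42.4 CPM in the unnamed cluster, 36.3 in Sertoli-like, 22.5 (11.2 to 40.3) in endothelial-like and 15.1 (12.1 to 18.6) in Leydig-like nuclei, and the germ-like level was 0.272 CPM from 3 UMIs. A *Hoxb9* UMI was in 28.02% of these Sertoli-like nuclei and in 0.404% of the germ-like nuclei, whose median depth was higher in the whole classes, at 15461.5 against 9947.5 UMIs. *Hoxb9* alone gave 254 of the 443 *Hox* UMIs of Sertoli-like nuclei. Its direction was thus opposite to that of *Hoxb3* to *Hoxb6* in the same cluster, of which *Hoxb6* gave 0.313 (0.216 to 0.443) against progenitor-like nuclei, and 0.0383 (0.00784 to 0.113) without the high-score nuclei.

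Within the Sertoli-like class a finer clustering gave 579 and 267 nuclei. *Hoxb9* was at 38.1 CPM (33.2 to 43.6) in the first and 20.1 CPM (16.3 to 24.5) in the second, while all *Hox* genes together were at 96.5 and 225 CPM. HoxA was at 1.07 and 16.4 CPM and HoxD at 30.3 and 104 CPM. High-score nuclei were 8.29% of the first and 35.6% of the second cluster. Without them HoxA was at 0.210 and 0.895 CPM from 1 and 2 UMIs, HoxD at 11.9 (9.05 to 15.5) and 9.40 CPM (5.82 to 14.4) and *Hoxb9* at 40.03 (34.6 to 46.1) and 28.2 CPM (21.7 to 36.1), so the HoxA and HoxD contrast between them went with those nuclei and the *Hoxb9* intervals overlapped. Within the progenitor-like class the contractile-like cluster of 1091 nuclei had HoxA at 27.6 CPM (23.9 to 31.9) and HoxD at 317 CPM (304 to 331), against 10.5 (8.52 to 12.8) and 381 CPM (368 to 394) in a progenitor-like cluster of 1422 nuclei. *Hoxa3* was at 14.8 and 4.01 CPM in the same 2 clusters, and at 13.7 and 3.85 CPM without the high-score nuclei, where HoxA was at 25.8 and 10.4 and HoxD at 314 and 383 CPM. The third cluster, of 755 nuclei led by cell cycle genes such as *Aspm* and *Top2a*, had HoxA at 26.5 CPM (23.0 to 30.4), HoxD at 325 CPM (312 to 338) and *Hoxa3* at 13.5 CPM, with intervals that overlap those of the contractile-like cluster. HoxA was thus lower and HoxD higher in the cluster of 1422 nuclei than in both others. In the main clustering the progenitor-like clusters had 2509 and 752 nuclei, the second with cell cycle genes such as *Aspm* among its leading genes. They had 594 and 598 CPM in all, and HoxA at 17.8 and 26.5 CPM.

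Endothelial-like nuclei had a split of their own. Without the high-score nuclei, which held 81.8% of the *Hox* UMIs of the class, 60 nuclei had HoxA at 81.9 CPM (58.5 to 112), HoxB at 104 CPM (77.8 to 137), HoxC at 8.19 CPM (2.23 to 21.0) from 4 UMIs and HoxD at 131 CPM (101 to 167). Against progenitor-like nuclei HoxA gave 4.33 (3.04 to 6.004), HoxB 3.18 (2.34 to 4.23), HoxD 0.379 (0.291 to 0.484) and HoxC 0.0410 (0.0112 to 0.105). With all 103 nuclei HoxA was at 41.7, HoxB at 59.9, HoxC at 63.9 and HoxD at 181 CPM, so the HoxC level of the class rested on the high-score nuclei. Of 22 genes 10 were at least 2-fold higher and 9 lower without them, against 13.6% and 27.2% of all genes, and 3 and 8 with them, against 12.7% and 10.4%.

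Pericyte-like nuclei, named for cells that lie around small vessels, had HoxC at 0.794 (0.652 to 0.959) and HoxD at 0.877 (0.762 to 1.01) of the progenitor-like level. They had *Hoxd3* at 137 CPM (111 to 168) and *Hoxd4* at 106 CPM, and had more HoxA, at 52.4 against 20.6 CPM. Of 22 genes 3 were at least 2-fold higher than in progenitor-like nuclei and 6 lower (*Hoxa10*, *Hoxb5*, *Hoxb9*, *Hoxc10*, *Hoxd9* and *Hoxd10*), where 9.13% and 15.3% of all genes were, from 379 *Hox* UMIs in 70 nuclei. Of these, *Hoxd9* gave 0.444 (0.229 to 0.780) and *Hoxd10* 0.412 (0.112 to 1.06). When the high-score nuclei were left out these were 4 and 5, against 9.15% and 20.7%. In the unnamed cluster 3 of 22 genes were at least 2-fold higher than in progenitor-like nuclei (*Hoxb3*, *Hoxb5* and *Hoxb9*) and 12 lower, where 14% and 16.7% of all genes were. There *Hoxb9* gave 5.30 (3.54 to 7.73), and 6.42 (3.97 to 9.96) without the high-score nuclei. Without them *Hoxb3* and *Hoxb5* were no longer past 2-fold, at 1.93 (0.868 to 3.75) and 1.68 (0.337 to 5.13), and 15 genes were lower, against 22.8% of all genes. Immune-like and erythroid-like nuclei had 14 and 8 *Hox* UMIs without the high-score nuclei, too few to place single genes.

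For chromatin, peaks within 1000 bases of the start of an annotated protein-coding transcript of a *Hox* gene were taken as promoter peaks. Starts of other transcripts were not used, among them the first annotated starts of *Hoxd4* and *Hoxc5*, which lie near peaks counted for *Hoxd3* and *Hoxc10*. They were found for 30 of the 39 genes, with 40 peaks in all and none shared. *Hoxa2*, *Hoxb3*, *Hoxb8*, *Hoxb9*, *Hoxc5*, *Hoxc6*, *Hoxc9*, *Hoxc12* and *Hoxd12* had none, so the promoter of *Hoxb9*, whose RNA stood apart, could not be compared this way. Fragments at these peaks were counted once each and divided by all fragments at peaks of the class, in fragments per 1000000 (FPM). *Hox* promoters together were at 626 FPM in pericyte-like, 610 in mesonephric mesenchyme-like, 564 in germ-like, 525 in surface epithelium-like, 501 in progenitor-like, 455 in endothelial-like, 420 in Leydig-like and 349 in Sertoli-like nuclei. The order was thus not that of the RNA, which was lowest of these in germ-like nuclei and whose sum also covers the genes without a promoter peak.

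From progenitor-like to Leydig-like nuclei the promoters differed less than the RNA. Transposase cuts gave a ratio of 1.20 and fragments 1.19 (1.09 to 1.31), with HoxA at 0.924 (0.783 to 1.10), HoxB at 1.16, HoxC at 1.31 and HoxD at 1.38 (1.19 to 1.61). Of the 40 peaks 4 were at least 2-fold higher in cuts and 1 lower, where 23.4% and 12.9% of all peaks were. *Hoxd3* promoter peaks gave 1.73 (1.18 to 2.64) and *Hoxd10* 1.83 (1.24 to 2.80). The interval of the HoxA promoters includes 1, while HoxA RNA was 3.54-fold higher in progenitor-like nuclei, and 7.81-fold without the high-score nuclei.

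In mesonephric mesenchyme-like nuclei the *Hox* promoters gave 1.22 (1.10 to 1.35) against progenitor-like nuclei, with HoxA at 1.40 (1.15 to 1.69) and HoxD at 0.989 (0.833 to 1.17). *Hoxa3* gave 1.96 (1.25 to 2.96) in promoter fragments, beside an RNA ratio of 5.03. In surface epithelium-like nuclei the promoters together gave 1.05 (0.953 to 1.15), with *Hoxa3* at 1.84 (1.24 to 2.68) and *Hoxd11* at 2.47 (1.36 to 4.31), from 18 and 50 *Hoxd11* fragments, in the same direction as their RNA. *Hoxd10* went the other way there, at 0.565 (0.348 to 0.874) in fragments and 1.502 in RNA. In the 250 bases printed above, *Hoxd11* had 11.5 FPM in surface epithelium-like and 2.58 in progenitor-like nuclei, from 11 and 17 fragments. Germ-like nuclei had 7.66 FPM there, from 18 fragments, so the higher level was not limited to the surface epithelium. *Hoxa3* had 9.38 FPM in surface epithelium-like and 3.65 in progenitor-like nuclei, from 9 and 24 fragments. Of the 40 peaks 2 were 2-fold higher and 1 lower in mesonephric mesenchyme-like nuclei, where 11.2% and 24.6% of all peaks were, and 3 and 2 in surface epithelium-like nuclei, where 12.5% and 24.9% were.

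Sertoli-like nuclei had the least open promoters of the large classes, at 0.696 (0.636 to 0.761) of the progenitor-like level, with HoxD at 0.544 (0.466 to 0.631), HoxB at 0.714, HoxC at 0.841 and HoxA at 0.857 (0.724 to 1.01). *Hoxd8* gave 0.277 (0.171 to 0.426), *Hoxb6* 0.355 (0.166 to 0.677), *Hoxc8* 0.446 and *Hoxd10* 0.481. Of these *Hoxb6* moved most without the high-score nuclei, to 3.86 FPM from 4 fragments against 17.4 in progenitor-like nuclei. Of 40 peaks 9 were at least 2-fold lower and 1 higher, where 25.5% and 18.1% of all peaks were. The RNA of HoxD differed more, at 64.4 against 344 CPM, and at 11.1 against 346 CPM without the high-score nuclei.

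Germ-like nuclei showed open *Hox* promoters beside nearly no *Hox* RNA. Progenitor-like over germ-like nuclei gave 0.888 (0.833 to 0.947) in promoter fragments and 6.31 in RNA, or 43.9 (37.4 to 51.9) in RNA without the high-score nuclei, when the promoters of both classes stood at 499 (481 to 518) and 544 (504 to 585) FPM. These sums cover unlike genes, as *Hoxb9*, *Hoxc5* and *Hoxc6* had no promoter peak, while *Hoxd1*, *Hoxa13* and *Hoxc13*, with little RNA, had peaks. Without the high-score nuclei the promoters of *Hoxd3*, *Hoxd4* and *Hoxc4*, the genes with the most UMIs, gave 29.9, 16.8 and 12.2 FPM in germ-like nuclei. In progenitor-like nuclei they gave 40.9, 32.7 and 21.9 FPM. The promoter of *Hoxb4* went the other way in the same nuclei, at 21.4 FPM in germ-like and 8.01 in progenitor-like nuclei. Those of *Hoxa5*, *Hoxa9* and *Hoxa10* gave 17.6, 9.19 and 9.95 FPM in germ-like against 13.2, 6.27 and 9.06 in progenitor-like nuclei. Their intervals overlapped between the classes, as did those of *Hoxd3* and *Hoxc4*. In RNA 21 of 22 genes were at least 2-fold higher in progenitor-like nuclei, where 16.6% of all genes were, and 0 were lower, where 27.8% were. Leaving out the high-score nuclei gave 22 of 22 higher and 0 lower, against 22.8% and 28.9%. Of the 40 peaks 5 were at least 2-fold higher and 8 lower in progenitor-like nuclei, where 31.4% and 16.8% of all peaks were.

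The promoters that were more open in germ-like nuclei included those of genes at the ends of the clusters. *Hoxd1* was at 44.7 (36.5 to 54.1) FPM in germ-like and 13.7 (10.997 to 16.8) in progenitor-like nuclei, *Hoxc13* at 58.3 (48.9 to 68.9) and 22.9 (19.4 to 26.9), and *Hoxa13*, a gene of the genital tubercle, at 36.2 (28.9 to 44.7) and 14.4 (11.7 to 17.6). The same genes had 4, 10 and 3 UMIs in germ-like and 0 in progenitor-like nuclei. *Hoxa7* and *Hoxb4* were also higher in germ-like nuclei, with progenitor-like over germ-like ratios of 0.369 and 0.452, so the pattern was not limited to the ends. In the other direction *Hoxd10* gave 3.08 (2.12 to 4.62) and *Hoxd4* 1.85 (1.32 to 2.65). In the 250 bases printed above *Hoxd1* had 26.4 FPM in germ-like and 8.36 in progenitor-like nuclei, and *Hoxd10* had 8.94 and 29.8.

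Without the high-score nuclei most of these contrasts were larger. *Hoxd1* was at 55.1 (43.1 to 69.4) FPM in germ-like nuclei, *Hoxc13* at 62.8 (49.9 to 77.9), *Hoxa13* at 42.9 (32.4 to 55.7) and *Hoxd10* at 4.59 (1.69 to 10.0), against 13.6, 22.5, 13.9 and 40.4 in progenitor-like nuclei. *Hoxb4* was at 21.4 (14.2 to 30.98) against 8.01, while the *Hoxa7* contrast became smaller, at 20.7 (13.6 to 30.1) against 10.6 (8.13 to 13.6), under 2-fold. The other promoter sums moved to 430 in Leydig-like, 635 in mesonephric mesenchyme-like, 542 in surface epithelium-like and 292 in Sertoli-like nuclei.

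**Figure D4:**
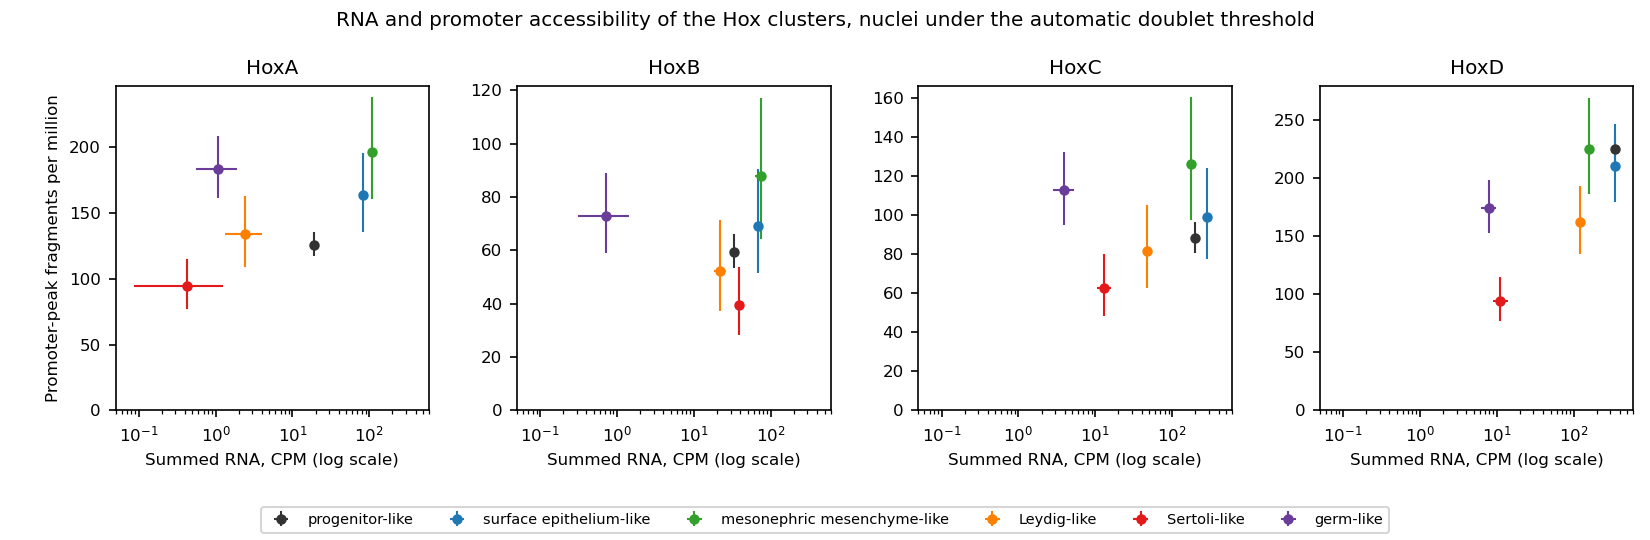
Promoter-peak fragments per 1000000 fragments at peaks (FPM, vertical axis) against summed RNA in CPM (horizontal axis, log scale) for each *Hox* cluster in 6 classes of nuclei, without the high-score nuclei. Lines are exact 95% intervals for counting error only. The promoter sums leave out the 9 genes without a promoter peak, which the RNA sums include. HoxA RNA spans from 0.428 CPM in Sertoli-like to 108 CPM in mesonephric mesenchyme-like nuclei while promoters span from 94.7 to 197 FPM, and germ-like nuclei combine 184 FPM with 1.09 CPM.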

How the data were processed

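The authors deposited gene counts and peak counts from Cell Ranger ARC 2.0.1 on mm10, with introns counted, together with an ATAC fragment list. The deposited counts are whole and not normalized, UMIs for genes and transposase cuts for peaks, and the list gives each fragment once. The library held 9833 barcodes, each with both RNA and ATAC, 122049390 UMIs and 38243814 cuts at peaks. Nuclei with at least 500 genes, under 10% mitochondrial, 10% ribosomal and 0.5% haemoglobin UMIs, over 20% of fragments at peaks and 250 to 25000 fragments at peaks were kept (7667), and 470 (6.13%) were removed by Scrublet rank, at 0.8% per 1000 nuclei (scanpy 1.11.5, Python 3.11.15). Joint RNA and ATAC clusters (Seurat 5.3.0, R 4.3.3, 30 components, 2000 variable genes, resolution 0.3) were named by markers, with at least 3 detected. The genes and peaks of the *Hox* loci were kept out, 72 genes and 144 peaks.

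Levels are the UMIs of a gene over all nuclei of a class, per 1000000 UMIs of that class. Ratios carry exact conditional binomial intervals, levels exact Poisson intervals and shares exact Clopper-Pearson intervals (scipy 1.17.1, numpy 2.4.6). Only the ratio intervals were checked on simulated counts. These were Poisson counts of whole classes, so spread between nuclei was not covered. With 1 library per assay no test was run. A gene or peak counts as higher or lower at 2-fold or more with at least 20 counts over both classes. The 39 *Hox* genes all entered the sums, 1 of them is not reported here by itself, those with at least 100 UMIs are given by class, and other genes were named only from lists of TALE cofactors, Polycomb genes, *Hox* activators and genes of the *Hox* loci. The members and lists were chosen with earlier results of these data known. In all, 15 alternatives were planned, with TMM factors from edgeR 4.0.16 among them, and 1 was added, leaving out the high-score nuclei.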

Additional observations from a re-analysis of the deposited data

How the results depend on the processing

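No paired analysis was possible because 1 library per assay was made and no test was run. Under the alternatives run, the summed *Hox* ratios of progenitor-like nuclei with Leydig-like, mesonephric mesenchyme-like and surface epithelium-like nuclei kept their direction. So did the single *Hox* genes past 2-fold in these 3 comparisons. The counts and shares given here have no direction and were followed for size only. No count was followed for surface epithelium-like nuclei. Direction was not followed for the other *Hox* genes. Over the 22, 22 and 23 genes with at least 20 UMIs, past 2-fold or not, 180 of 233, 202 of 239 and 226 of 245 values stayed within the counting interval. *Hox* RNA in progenitor-like over Leydig-like nuclei (2.43) was 3.15 with the automatic Scrublet threshold, 3.10 with the high-score nuclei left out of the same classes, 3.31 with the germ-like level subtracted, 2.69 thinned to 2000 UMIs, 2.62 with TMM factors, 2.24 with no doublet removal, 2.23 with classes from ATAC alone and 2.22 with minimums of 1000 genes and 1000 fragments. The 17 genes 2-fold higher there became 26 with no minimum of UMIs, where the share of all genes went from 16.3% to 26.1%. Mesonephric mesenchyme-like over progenitor-like nuclei (0.916) gave 0.852 with the automatic threshold, 0.861 with the high-score nuclei left out, 0.868 with TMM factors and 0.972 with classes from RNA alone. Its 7 higher genes became 11 with classes from RNA alone, 4 with at least 100 UMIs, 13 with no minimum and 12 at 1.5-fold, where the share of all genes, 5.55%, became 5.71%, 3.61%, 12.2% and 10.3%. Surface epithelium-like over progenitor-like nuclei (1.26) gave 1.33, 1.31 and 1.18 under the automatic threshold, the left-out nuclei and TMM, and 1.31 with the germ-like level subtracted. The share of paralogues 9 to 13 was 12.98% in progenitor-like nuclei with the germ-like level subtracted, and 14.1%, 14.8% and 14.2% in mesonephric mesenchyme-like nuclei with stricter minimums, ATAC alone and RNA alone. In these 3 clusterings the leading genes of the mesonephric class also included some that led the contractile-like cluster. The cause of the moved shares was not tested. Outside these, leaving out the high-score nuclei turned some orders, among them that of paralogues 9 to 13 (63.2%, from 32.4%) and 4 to 8 in Sertoli-like nuclei and that of HoxC and HoxA in endothelial-like nuclei (8.19 and 81.9 CPM, from 63.9 and 41.7). It also set immune-like nuclei below Leydig-like nuclei (61.3 and 193 CPM), where the intervals had overlapped before (254 and 245 CPM).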

Other observations

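Genes that act with or on *Hox* genes were read by the same rule of 2-fold and 20 UMIs. Of 9 TALE cofactors, whose proteins bind DNA together with Hox proteins, 3 were higher in progenitor-like than in Leydig-like nuclei (*Meis2*, *Pbx4* and *Pknox2*) and 0 lower, where 16.3% and 12.9% of all genes were, and 6 and 0 without the high-score nuclei, against 19.7% and 14%. *Pknox2* stood at 1013 against 214 CPM. *Meis1* and *Meis2* were higher in mesonephric mesenchyme-like than in progenitor-like nuclei, at 2406 against 886 CPM and 2606 against 802 CPM, and *Pbx3* was lower, at 684 against 1462 CPM, where 5.55% and 8.36% of all genes were. When the high-score nuclei were left out *Pknox2* was also lower, which gave 2 higher and 2 lower, against 6.08% and 10.9%. Against progenitor-like nuclei surface epithelium-like nuclei had 2 of the 9 higher (*Meis2* and *Pbx4*) and 3 lower (*Meis3*, *Pbx3* and *Pknox2*), where 9.22% and 8.91% of all genes were. In Sertoli-like nuclei 5 of the 9 were lower than in progenitor-like nuclei and 0 higher, where 14.2% and 15.4% of all genes were, with *Meis2* at 217 CPM. Without the high-score nuclei 6 were lower and 0 higher, against 17.8% and 16.7% of all genes.

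Of 21 Polycomb genes, which keep *Hox* genes silent, 5 were higher in progenitor-like than in Leydig-like nuclei (*Ezh2*, *Phf19*, *Cbx2*, *Cbx6* and *Phc2*) and 1 was lower, where 16.3% and 12.9% of all genes were. Without the high-score nuclei the counts were again 5 and 1, against 19.7% and 14%. Both counts are too small to set apart from these shares. *Ezh2*, the methyltransferase of the complex, was at 395 against 140 CPM, and *Rnf2*, a ubiquitin ligase of the other complex, at 90.8 against 427 CPM. Of 11 listed activators 8 had enough UMIs, and 0 passed 2-fold between progenitor-like and Leydig-like nuclei, a count too small to set apart from the same shares of all genes.

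The noncoding genes of the loci ranged widely, with 1164 for *Hoxd3os1*, 234 for *Hoxb3os*, 139 for *Hoxaas3*, 103 for *Hoxb5os*, and 61 for *Hotairm1*, 1 for *Hotair* and 0 for *Hottip*. *Hoxaas3*, antisense within HoxA, was at 9.76 CPM (6.53 to 14.01) in mesonephric mesenchyme-like and 1.64 CPM (1.16 to 2.24) in progenitor-like nuclei. *Hoxd3os1* had 27.6 CPM in progenitors against 12.9 CPM in Leydig-like nuclei.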
